A study of Mus musculus with 12 samples.

Results

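Among the surface receptors of natural killer (NK) cells on the nCounter panel used on these A20 tumors, 5 are described here: Ncr1, Klrc1, Klrd1, Klrg1 and Klrk1. They were taken by symbol from the 770 genes of the panel, and all 5 were found. Gene expression was measured in 12 subcutaneous A20 tumors, raised by implanting 5000000 cells of this mouse B-cell lymphoma line per animal. The hosts were female Balb/c mice with an intact immune system, 7 to 8 weeks old when purchased, and each tumor came from its own mouse. About 7 days after implantation, tumors were injected with PBS (4 tumors), with the stable emulsion SE alone (4 tumors) or with GLA-SE (4 tumors), which is 10 μg of the TLR4 agonist glucopyranosyl lipid A in 50 μl of 2% SE and is called G100 in the study. All tumors received 3 injections, every other day, and were collected 2 h after the last, so PBS and SE are the controls for the agonist and for its carrier.

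NK cells are innate lymphocytes that kill tumor cells and release interferon gamma when signals from activating receptors outweigh those from inhibitory ones. Ncr1 encodes NKp46, an activating receptor found on NK cells and some innate lymphoid cells. Klrk1 encodes NKG2D, which binds stress-induced relatives of MHC class I on tumor cells and is also carried by activated CD8 T cells in mice. Klrd1 encodes CD94, which pairs with NKG2A, the product of Klrc1, in an inhibitory receptor for the non-classical MHC molecule Qa-1. Klrg1 encodes an inhibitory receptor of mature NK cells and effector T cells that binds cadherins. Klrc1, Klrd1, Klrg1 and Klrk1 are therefore transcribed in T cells as well, and of the 5 genes Ncr1 is the one most restricted to NK cells.

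All 5 genes matched RefSeq symbols. In that annotation 4 of the 5 lie on chromosome 6, where the protein-coding genes Klrd1, Klrk1, Klrc3, Klrc2 and Klrc1 follow each other, and Ncr1 lies on chromosome 7. Promoter sequence of RefSeq (GRCm38.p6) was given for Ncr1, Klrk1 and Klrc1. The stretches before Ncr1 and Klrk1 are shown because both are activating receptors that rose together in the GLA-SE tumors described next, each from a different chromosome. The Klrk1 stretch stops 39 bases short of the start used, where the annotated gene begins. Each is written 5′ to 3′ along the gene, and capitals mark the core motif of Runx factors (TGTGGT) or of T-box factors (TCACAC) on either strand.
Ncr1, chr7:4337465-4337714, plus strand: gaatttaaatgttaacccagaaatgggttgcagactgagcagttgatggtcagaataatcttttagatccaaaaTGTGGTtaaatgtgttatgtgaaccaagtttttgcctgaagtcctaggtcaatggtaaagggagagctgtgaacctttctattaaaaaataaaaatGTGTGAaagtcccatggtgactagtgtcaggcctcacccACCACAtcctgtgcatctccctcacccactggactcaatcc
Klrk1, chr6:129623904-129624114, minus strand: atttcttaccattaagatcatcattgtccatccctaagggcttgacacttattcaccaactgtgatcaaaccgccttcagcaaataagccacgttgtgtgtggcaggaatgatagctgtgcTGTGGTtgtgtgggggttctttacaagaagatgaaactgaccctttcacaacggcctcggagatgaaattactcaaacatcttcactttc

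In the 250 bases before its first annotated start, Ncr1 held the Runx core at 176 and 41 bases and the T-box core at 80 bases before the start. Klrk1 held the Runx core at 129 bases and Klrc1 at 87 bases before the start used, and neither held the T-box core. Over 32851 promoter windows of this length, 14.0% held the Runx core and 12.3% the T-box core on either strand. A gamma-activated site (TTCNNNGAA, 7.02% of windows) and an NF-kB site (0.356% of windows) were searched too. Neither was found in the windows of the 3 genes. The matches did not overlap each other, and they describe letters only.

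The values are counts of barcoded probes, and total counts ranged from 810260 to 1612415 per tumor. Normalized counts printed here are deposited counts scaled to 17 stable reference genes on 1 scale for all 12 tumors, and tests used the stable reference genes of the 2 groups compared. SE replicate 4 stood apart, with a geometric mean of 959 counts over the reference genes against 1460 to 2587 in the other tumors, so its counts were scaled up most. Its summed T cell markers were also the highest of all tumors at 5470 normalized counts. The edgeR tests of the 5 receptors that involve SE are given with and without it. Ratios to the CD3 genes are given without it for some genes. Ratios of receptor pairs include it, as do ranges and means of other genes in SE tumors unless stated. For the B cell label of A20, 8 B cell markers were looked at. They summed to 18164 to 21533 normalized counts in PBS tumors, 12931 to 21021 in SE tumors and 14619 to 17097 in GLA-SE tumors. Ms4a1 and Cd79b carried most of these sums, with means of 8983 and 6424 in PBS tumors, where Blk was at 142. Probes of different genes are captured with different efficiency, so levels were compared between tumors and not between genes. More NK cells and more receptor RNA per cell cannot be told apart in whole tumors.

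All 5 receptor genes were higher in GLA-SE tumors than in PBS tumors, by 2.48-fold to 3.14-fold, and for each gene every GLA-SE tumor lay above every PBS tumor. Of all 750 genes tested 68.0% were higher in this comparison and 63.5% had every GLA-SE tumor above every PBS tumor. With panel median or TMM scaling 0 of the 5 receptors were called, and the groups overlapped for each of them. None of the 5 passed the test between SE and PBS tumors, where the groups overlapped for every gene (9.33% of all genes had every SE tumor above every PBS tumor). The plot of normalized counts by tumor shows the same order for each receptor, with PBS and SE side by side and GLA-SE above, apart from SE replicate 4.

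**Figure D1:**
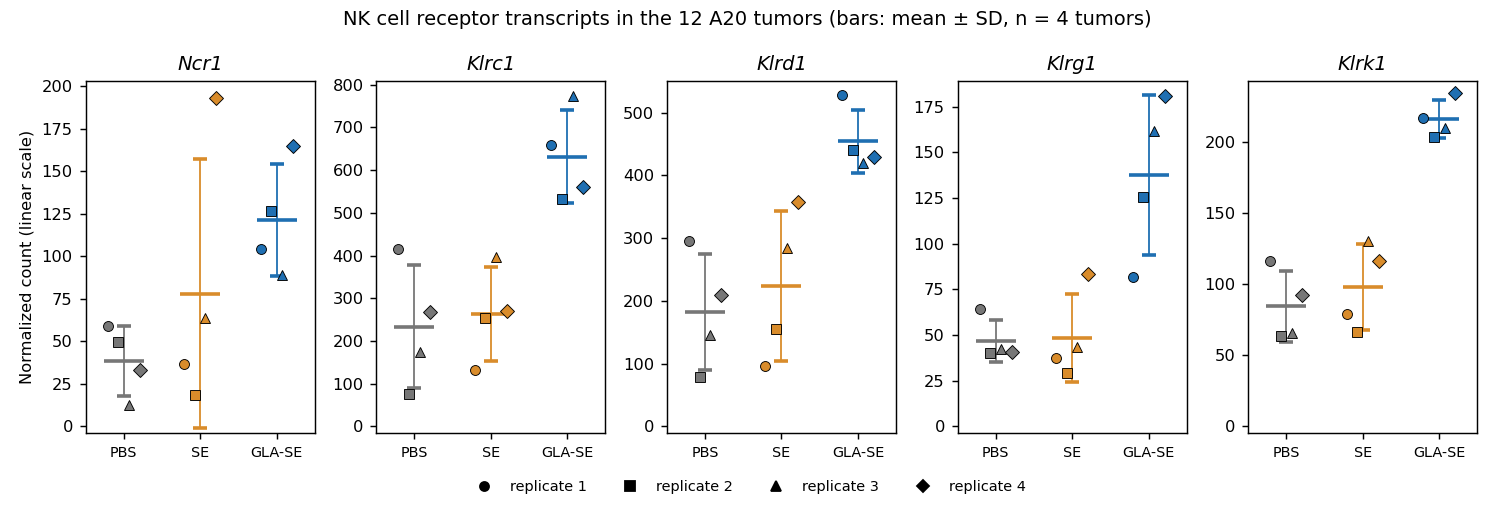
Normalized counts (linear axis, one panel per gene) of the 5 NK cell receptor genes in each PBS, SE and GLA-SE tumor, with symbols for the replicate number and bars for the mean ± SD of 4 tumors. The 4 GLA-SE tumors lie above the 4 PBS tumors in every panel, and SE replicate 4 reaches 193 for Ncr1, above all GLA-SE tumors.

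The activating receptor Ncr1 was measured at 59.3, 49.6, 12.4 and 33.4 normalized counts in PBS replicates 1 to 4. It was at 36.8, 18.7, 63.7 and 193 in SE replicates 1 to 4, and at 104, 127, 89.1 and 165 in GLA-SE replicates 1 to 4. The GLA-SE tumors were all above the PBS tumors, while SE replicate 4 was above every other tumor. The mean was 38.7 ± 20.5 (SD, n = 4) in PBS, 78.2 ± 79.0 in SE and 121 ± 32.9 in GLA-SE tumors, and the SE mean was 39.7 ± 22.6 (n = 3) without replicate 4. Ncr1 was the one receptor with deposited counts under 20, the count threshold of the methods, at 17 in PBS replicate 3 and 18 in SE replicate 2. Between GLA-SE and PBS it differed by 1.65 on the log2 scale (± 0.44, the standard error of the fit, as for all fold changes here, adjusted p = 0.00975, edgeR).

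Klrk1, the gene of NKG2D, was at 116, 63.6, 65.7 and 92.1 normalized counts in the PBS tumors. It was at 78.9, 66.6, 129.9 and 116 in the SE tumors, and at 217, 204, 209.7 and 234 in the GLA-SE tumors. These 4 GLA-SE values lay closer together than those of any other receptor in any group, with a coefficient of variation of 6.06%, against 29.3% in PBS and 30.6% in SE tumors. Its mean was 84.3 ± 24.7 in PBS, 97.9 ± 29.9 in SE and 216 ± 13.1 in GLA-SE tumors (SD, n = 4), and the SE mean was 91.8 ± 33.5 (n = 3) without replicate 4. The log2 fold change between GLA-SE and PBS was 1.35 (± 0.23, adjusted p = 0.00124, edgeR), the smallest adjusted p of the 5 genes.

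Klrc1 and Klrd1, the genes of the NKG2A and CD94 chains, varied widely between PBS tumors and little between GLA-SE tumors. Klrc1 was at 416, 76.7, 174 and 268 normalized counts in the PBS tumors, at 131, 254, 397 and 271 in the SE tumors and at 659, 533, 774 and 561 in the GLA-SE tumors. Klrd1 was at 295, 79.5, 146 and 209.7 in the PBS tumors, at 96.3, 155, 285 and 358 in the SE tumors and at 528, 440.3, 419 and 430.1 in the GLA-SE tumors. Both genes were highest in replicate 1 and lowest in replicate 2 among PBS tumors, and the ratio of highest to lowest was 5.43 for Klrc1 and 3.71 for Klrd1. In GLA-SE tumors these ratios were 1.45 and 1.26.

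The mean of Klrc1 was 234 ± 145 in PBS, 263 ± 109 in SE and 632 ± 109 in GLA-SE tumors (SD, n = 4). Its log2 fold change between GLA-SE and PBS was 1.43 (± 0.44, adjusted p = 0.0180, edgeR), and without PBS replicate 3 it was 1.31 with an adjusted p of 0.0513. The mean of Klrd1 was 183 ± 91.8 in PBS, 224 ± 119 in SE and 454 ± 49.8 in GLA-SE tumors, and its log2 fold change was 1.31 (± 0.35, adjusted p = 0.00990, edgeR). The probe of Klrc1 could take up transcripts of the near-identical gene Klrc2, whose own probe gave 7 to 39 deposited counts, so the division between these 2 genes is uncertain. Without replicate 4 the SE means were 261 ± 133 for Klrc1 and 179 ± 96.4 for Klrd1 (n = 3). Over the 12 tumors log2 levels of Klrc1 and Klrd1 had a Pearson r of 0.94, and 0.88 for deviations from group means, whereas Ncr1 and Klrc1 had r values of 0.55 and 0.15. These correlations describe tumors that share 1 scaling factor per tumor across genes.

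Klrg1, the inhibitory receptor of mature cells, was at 64.1, 40.2, 42.4 and 40.5 normalized counts in the PBS tumors. It was at 37.4, 29.2, 43.7 and 83.5 in the SE tumors and at 81.9, 126, 162 and 181 in the GLA-SE tumors. PBS replicate 1 stood above the other PBS tumors, and GLA-SE replicate 1 was the lowest of its group and near SE replicate 4. The mean was 46.8 ± 11.6 in PBS, 48.4 ± 24.1 in SE and 138 ± 43.7 in GLA-SE tumors (SD, n = 4), and the SE mean was 36.8 ± 7.30 (n = 3) without replicate 4. The log2 fold change between GLA-SE and PBS was 1.55 (± 0.30, adjusted p = 0.00228, edgeR).

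The comparison of GLA-SE with PBS asks whether the agonist in its carrier changed the tumor, and all 5 receptors passed it. The 5 of 5 is read against the 68.0% of all genes that were higher, while 0.533% were lower. For each of the 5, scaled to reference genes, the exact permutation test over tumors gave p = 0.0286, two-sided, below which 4 against 4 cannot go. With panel median or TMM scaling the groups overlapped for each of the 5. The median log2 fold change of all 750 genes was 0.89, and the receptors lay 0.42 (Klrd1) to 0.76 (Ncr1) above it. By size of log2 fold change they ranked 120 (Ncr1) to 219 (Klrd1) among the 750 genes.

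The calls depend on scaling to reference genes. Scaled to the median count of the panel, the 5 log2 fold changes between GLA-SE and PBS were 0.12 to 0.44 and none was called, while the median of all 750 was -0.40. With TMM they were 0.47 to 0.80 and none was called, while the median of all 750 was -0.0087. Of all genes 510 were higher and 4 lower with reference genes, 61 higher and 307 lower with the panel median, and 148 higher and 168 lower with TMM.

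**Figure D2:**
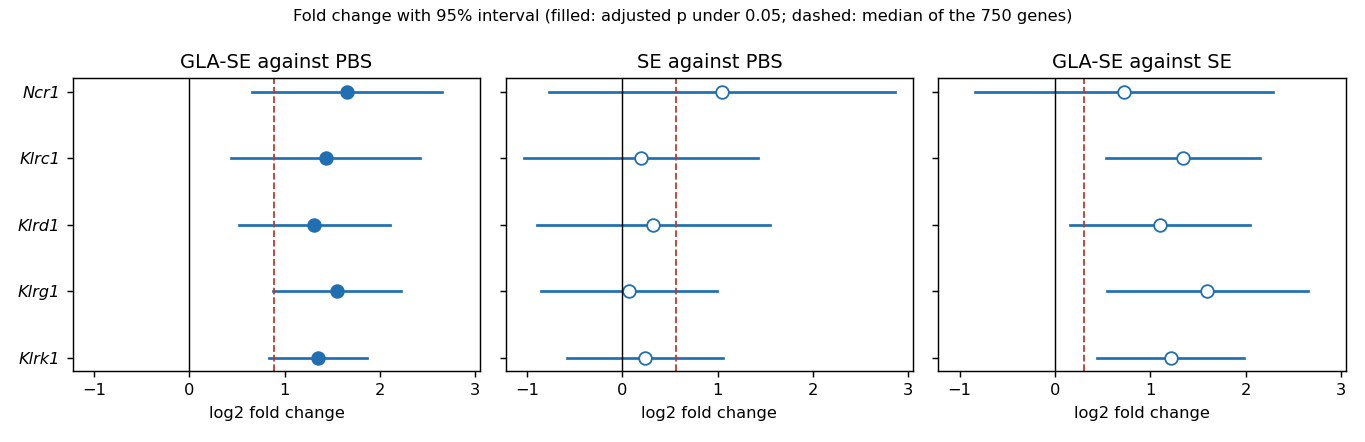
Log2 fold changes (horizontal axis) of the 5 receptor genes in the 3 comparisons with 95% intervals from edgeR, filled where the adjusted p was under 0.05. The dashed line marks the median of the 750 genes tested, which was 0.89, 0.56 and 0.30 from left to right, and only the GLA-SE against PBS panel has filled points.

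The comparison of SE with PBS asks what the carrier does alone, and none of the 5 receptors was called. The background was 0 of 750 genes (0.0%) by edgeR after adjustment, with 147 at an unadjusted p under 0.05, and by DESeq2 12 with its own size factors and 66 with those of the reference genes. The log2 fold changes were 0.20 for Klrc1 (95% interval -1.03 to 1.43), 0.33 for Klrd1 (-0.90 to 1.55), 0.072 for Klrg1 (-0.86 to 1.00) and 0.24 for Klrk1 (-0.58 to 1.06). These intervals include no change and also include a rise as large as 2.00-fold to 2.93-fold at their upper ends. Ncr1 had the largest value at 1.05 (-0.77 to 2.86), and without SE replicate 4 it was 0.026. Without that tumor Klrc1, Klrd1, Klrg1 and Klrk1 were at 0.14, -0.049, -0.36 and 0.11, so the sign of Klrd1 and Klrg1 rested on SE replicate 4.

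The comparison of GLA-SE with SE asks what the agonist adds to its carrier. The log2 fold changes were 0.72 for Ncr1 (adjusted p = 0.641), 1.34 for Klrc1 (0.0919), 1.10 for Klrd1 (0.192), 1.60 for Klrg1 (0.114) and 1.21 for Klrk1 (0.103) in edgeR, and none passed, where 2.13% of the 750 genes did. On the scale of this comparison every GLA-SE tumor lay above every SE tumor for 4 of the 5 genes (exact permutation p = 0.0286 each, two-sided), against 15.6% of all genes. Klrg1 did so by a small margin and overlapped on the scale of all 12 tumors, where SE replicate 4 was at 83.5 and GLA-SE replicate 1 at 81.9. Ncr1 overlapped on both scales, with SE replicate 4 at 193.

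Without SE replicate 4, Klrg1 rose by 1.93 (adjusted p = 0.0236) and Klrk1 by 1.26 (adjusted p = 0.0356) on the log2 scale, 2 of 5 genes against 14.3% of all genes. Ncr1 then had a log2 fold change of 1.63 (adjusted p = 0.0586), Klrc1 of 1.31 (0.0586) and Klrd1 of 1.38 (0.0506). The GLA-SE tumors were compared with PBS and with SE tumors, so these 2 comparisons share them and are not independent.

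The receptors did not separate from each other between groups. The log2 ratio of a pair of receptors within a tumor does not depend on scaling, and 10 pairs were compared. Groups overlapped for all 10 pairs in each of the 3 comparisons, and the smallest exact permutation p was 0.400 for GLA-SE against PBS (Klrc1 over Klrd1), 0.314 for SE against PBS (Ncr1 over Klrg1) and 0.343 for GLA-SE against SE (Klrg1 over Klrk1), before adjustment. The ratio of Klrc1 to Klrd1 was 0.46 ± 0.28 on the log2 scale in GLA-SE and 0.26 ± 0.23 in PBS tumors (SD, n = 4). The ratio of Ncr1 to Klrc1 ranged from -3.73 to -0.62 in PBS tumors and from -3.69 to -0.48 in SE tumors. With 4 tumors a group these tests see only large shifts.

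Since T cells carry several of these receptors, each was also set against the mean log2 count of Cd3d, Cd3e and Cd3g, the CD3 chains of the T cell receptor complex, in the same tumor. Relative to the CD3 genes, Klrd1 was at -0.87, -1.12, -1.05 and -1.15 in PBS replicates 1 to 4 and at -0.40, -0.35, -0.86 and -0.76 in GLA-SE replicates 1 to 4. The groups did not overlap, by a small margin of -0.86 against -0.87, and the difference was 0.46 (exact permutation p = 0.0286, 0.143 after adjustment over the 5 genes). The differences of the others were 0.79 for Ncr1, 0.66 for Klrc1, 0.50 for Klrg1 and 0.38 for Klrk1, with exact p values of 0.257, 0.0571, 0.314 and 0.143, and their groups overlapped. All 5 differences were positive, but they share the CD3 mean of each tumor. None passed the adjustment, which a single gene at the smallest possible exact p of 0.0286 could not pass alone.

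In SE replicate 4 the CD3 genes were far higher than in the other SE tumors, with Cd3e at 1191 normalized counts against a mean of 203 ± 71.4 (SD, n = 3). Relative to them Klrc1 was at -2.07 there and at -0.25, 0.47 and 0.52 in SE replicates 1 to 3. Klrk1 was at -3.28 in that tumor and at -0.98, -1.45 and -1.09 in the others. Without SE replicate 4 the SE tumors lay above the PBS tumors for Klrc1, by 1.03, and for Klrd1, by 0.75 (exact permutation p = 0.0571 each, below which 3 against 4 tumors cannot go, and 0.143 once adjusted). Ncr1, Klrg1 and Klrk1 differed by 0.85, 0.44 and 0.87, and their groups overlapped. The CD3 genes were lower in these SE tumors than in PBS tumors, with Cd3e at means of 203 and 388 normalized counts. Klrc1 was at means of 261 and 234 in the same groups, and Klrd1 at 179 and 183. Without SE replicate 4, Klrk1 relative to the CD3 genes was lower in every GLA-SE tumor than in every SE tumor, by 0.49 between the means (exact permutation p = 0.0571, 0.286 after adjustment). With all SE tumors the groups overlapped for each gene in both comparisons with SE.

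**Figure D3:**
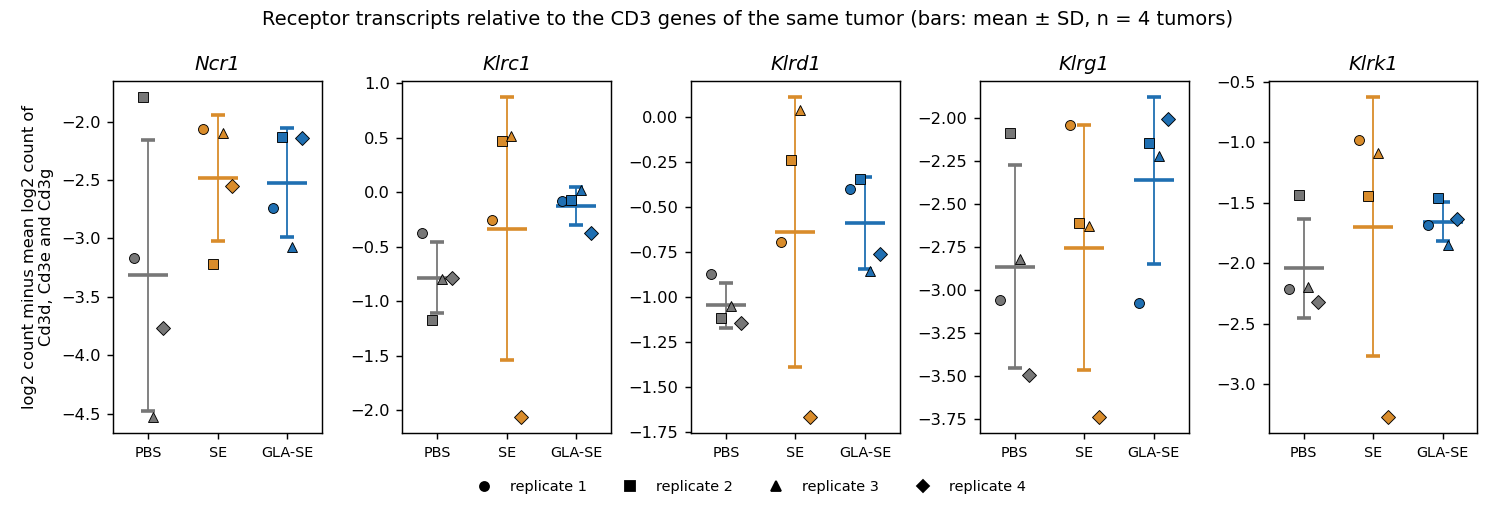
Log2 count of each receptor minus the mean log2 count of Cd3d, Cd3e and Cd3g in the same tumor (vertical axis), by group, with bars for the mean ± SD of 4 tumors. Klrd1 in GLA-SE lies above PBS in every tumor, and SE replicate 4 (diamond) lies lowest of all tumors for Klrc1, Klrd1, Klrg1 and Klrk1.

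Other receptors of the natural killer gene complex were mostly dim, and 3 of 15 were higher in GLA-SE than in PBS tumors, against 68.0% of all genes, with a median log2 fold change of 0.48 that turned to -0.78 with panel median scaling (1 higher and 7 lower) and -0.41 with TMM (1 higher and 3 lower). Only 7 of the 15 reached a mean of 20 normalized counts in a group. Klra2, which encodes the Ly49B receptor known from myeloid cells, rose from 66.4 ± 22.9 to 286 ± 42.9 normalized counts (SD, n = 4), a log2 fold change of 2.10 (± 0.28, adjusted p = 0.000464, edgeR). Klra7 and Klra17, which encodes the Ly49Q receptor of plasmacytoid dendritic cells and myeloid cells, rose by 1.27 and 1.23 on the log2 scale at means of 29.8 and 35.8 in GLA-SE tumors, where Klra17 ran from 16.6 to 73.9. With panel median scaling their log2 fold changes were 0.018 and -0.12. Klrc2, which encodes the activating partner NKG2C of CD94, had a log2 fold change of 0.80 (adjusted p = 0.0770), and Klrb1c, the NK1.1 gene, of -0.27 (adjusted p = 0.532) at 10.2 to 26.1 counts in GLA-SE tumors. The Ly49 and NK1.1 families differ between mouse strains, and the strain of the probe design is not given in the sources used here.

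Of 5 ligands of the receptors only H2-T23 was called between GLA-SE and PBS tumors, where 68.0% of all genes were higher. H2-T23 encodes Qa-1, the ligand of CD94 and NKG2A. It rose from 4338 ± 508 to 10061 ± 2411 normalized counts between PBS and GLA-SE tumors (log2 fold change 1.21 ± 0.17, adjusted p = 0.000576, edgeR). With panel median scaling its log2 fold change was -0.092 and it was not called higher. With TMM it was 0.29, and H2-T23 was the 1 ligand called higher. The ligands of NKG2D on the panel were not called with reference genes, but all 3 were called lower with panel median scaling and with TMM. With these 2 scalings the log2 fold changes between GLA-SE and PBS were -1.29 and -0.90 for H60a, -1.20 and -0.82 for Raet1, and -1.58 and -1.20 for Ulbp1. H60a was at 453 ± 44.6 in PBS, 512 ± 97.1 in SE and 462 ± 67.4 in GLA-SE tumors, Raet1 at 197 ± 23.6, 133 ± 33.8 and 207 ± 25.1, and Ulbp1, the gene of MULT1, at 575 ± 47.7, 614 ± 231 and 471 ± 67.8. Ulbp1 had a log2 fold change of -0.29 between GLA-SE and PBS (adjusted p = 0.0849). Cdh1, the gene of E-cadherin and a ligand of KLRG1, was at 10.3 to 131 in PBS tumors and 32.8 to 73.7 in GLA-SE tumors, and spread from 16.0 to 1405 in SE tumors.

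Adaptors and kinases that carry the receptor signal were called in 4 of 7 cases, all higher in GLA-SE than in PBS tumors, below the 68.0% of all genes, while panel median scaling left 1 higher and 1 lower and TMM 1 higher. Their median was 0.82 on the log2 scale, which turned to -0.40 with panel median scaling and -0.042 with TMM. Fcer1g, a signalling chain of NKp46 and of Fc receptors of myeloid cells, rose by 1.73 (adjusted p = 0.000182), and the kinases Syk and Zap70 by 0.97 and 0.89 (-0.34 each with panel median scaling). Cd247, the zeta chain shared by NKp46 and the T cell receptor, rose by 0.82 (-0.40 with panel median scaling and -0.042 with TMM). Hcst, which encodes DAP10, the adaptor of NKG2D, had a log2 fold change of 0.61 (adjusted p = 0.0547) and did not pass.

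Cytotoxic effector genes were higher in GLA-SE than in PBS tumors in 6 of 9 cases, a share near the 68.0% of all genes, while 3 were higher and 1 lower with panel median scaling, and 3 higher with TMM. The list had a median log2 fold change of 1.30, which stayed above 0 with panel median scaling (0.046) and TMM (0.42). Gzma and Gzmb, which encode granzymes, rose by 3.11 (± 0.37, adjusted p = 0.000299) and 2.65 (± 0.32, adjusted p = 0.000330), and Prf1, the gene of perforin, by 2.05 (± 0.39, adjusted p = 0.00215, edgeR). Prf1 was at 160 ± 85.5 normalized counts in PBS, 144 ± 52.8 in SE and 665 ± 110.4 in GLA-SE tumors (SD, n = 4). Ifng, the gene of interferon gamma, rose by 1.33 from 22.3 ± 7.08 counts, and was at 0.046 with panel median scaling and 0.42 with TMM. Gzma, Gzmb and Prf1 were at 1.89, 1.40 and 0.85 with panel median scaling and at 2.26, 1.77 and 1.20 with TMM. Between GLA-SE and SE, Gzmb and Prf1 were the 2 called genes of this list, at 2.85 (adjusted p = 0.00855) and 2.29 (adjusted p = 0.0123), where 2.13% of all genes were higher. Without SE replicate 4, 4 of the 9 were called in that comparison, against 14.3% of all genes. With TMM 1 of 9 was called, against 3 of all 750 genes, and with panel median scaling 0 of the 9 and 0 of all genes.

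Among cytokines, cytokine receptors and transcription factors of NK cells, 12 of 14 were higher in GLA-SE than in PBS tumors, where 68.0% of all genes were. With panel median scaling 0 were higher and 1 lower, and with TMM 5 were higher. The median log2 fold change was 1.47, which was 0.15 with panel median scaling and 0.54 with TMM. Without GLA-SE replicate 3, 9 of 14 were higher, where 476 of all 750 genes were. Il15, the survival cytokine of NK cells, rose by 1.59 and Il2rb, the receptor chain through which it signals, by 1.68 (adjusted p = 0.00109 for each). Il12b, Il12rb2 and Il18 rose by 2.64, 2.20 and 1.71, and GLA-SE replicates ranged from 58.0 to 883 normalized counts for Il12b. Between SE and PBS 0 of the 14 were called, with a median of 0.39, and Il15, Il12rb2 and Il18 at 1.17, 1.42 and 1.69. Between GLA-SE and SE 0 were called, with a median of 0.94, and 5 without SE replicate 4, where 14.3% of all genes were. In that comparison Il15, Il12rb2 and Il18 were at 0.54, 0.90 and 0.14, and Il12b at 2.62. Between GLA-SE and PBS, Runx3 and Tbx21, the gene of the T-box factor T-bet, rose by 0.87 and 1.17 (-0.47 and -0.081 with panel median scaling, -0.075 and 0.29 with TMM). Eomes, the gene of another T-box factor, had a log2 fold change of 0.55 (adjusted p = 0.174, edgeR), which was -0.69 with panel median scaling and -0.33 with TMM. Xcl1, the other gene of this list not called, was at 0.33 (adjusted p = 0.396, edgeR), and at -0.95 and -0.56 with these scalings.

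Markers of other cells moved in the same comparison. Between GLA-SE and PBS tumors, 5 of 9 T cell markers, 8 of 8 monocyte and macrophage markers, 4 of 8 neutrophil markers and 10 of 10 endothelium and fibroblast markers were higher, with median log2 fold changes of 0.81, 1.61, 1.40 and 1.05. Of all genes 68.0% were higher, and with panel median scaling 0, 2, 3 and 0 markers of these lists were, and 0, 7, 4 and 2 with TMM. Called lower were 0, 0, 4 and 1 markers with panel median scaling and 0, 0, 1 and 0 with TMM. Only 5 of the 8 neutrophil markers reached a mean of 20 normalized counts in a group. The medians were -0.40, 0.33, 0.075 and -0.19 with panel median scaling and -0.050, 0.71, 0.47 and 0.17 with TMM. Without GLA-SE replicate 3 the T cell markers called were 2 of 9, where 476 of all 750 genes were higher. Of 8 B cell markers 0 were higher and 2 lower, Ms4a1 (CD20) at -0.46 and Cd79b at -0.42, with a median of -0.08. With panel median scaling 8 of 8 B cell markers were lower (median -1.37) and with TMM 7 of 8 (median -0.99). The 5 receptors had a median of 1.43, of 0.23 with panel median scaling and of 0.58 with TMM. The summed T cell markers were 935 to 2600 normalized counts in PBS tumors, 802 to 5470 in SE tumors and 2606 to 3629 in GLA-SE tumors.

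Summed monocyte and macrophage markers were 28952 to 36967 in PBS, 24283 to 107468 in SE and 82876 to 122489 in GLA-SE tumors. Summed neutrophil markers were 519 to 591, 383 to 1453 and 1693 to 11674, and those of endothelium and fibroblasts 4118 to 9291, 3544 to 121765 and 18127 to 26714. No marker was at 0 in any tumor, but the lowest count of any gene on the panel was 1. Apart from the ratio to the CD3 genes, their part in the receptor results was not tested. In comparison, the 5 receptors summed to 309 to 950 in PBS, 380 to 1022 in SE and 1429 to 1654 in GLA-SE tumors.

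**Figure D4:**
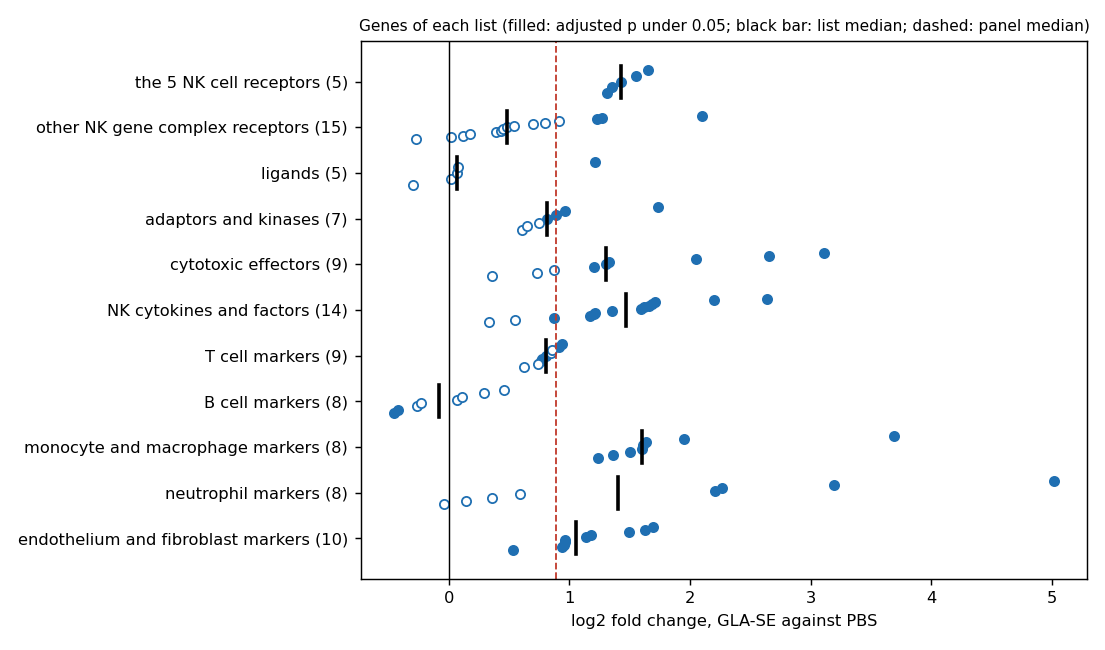
Log2 fold changes between GLA-SE and PBS tumors (horizontal axis) of each gene in 11 lists (number of genes in brackets), filled where the adjusted p was under 0.05, with the list median as a black bar and the median of all 750 genes, 0.89, as a dashed line. The 5 receptors all lie to the right of the dashed line, as do some of the 15 other NK gene complex receptors, among them Klra2 (2.10), Klra7 (1.27) and Klra17 (1.23).

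The genes whose pattern over the 12 tumors was most like the mean log2 level of the 5 receptors were Il2rb (Pearson r 0.97), Tnfrsf14, Zbp1, Itgb2, Il10ra and Bst2 (r 0.96 each), out of 669 genes with a mean of at least 20 normalized counts. The median r over those 669 genes was 0.73, and all genes of a tumor share its scaling factor. For deviations from group means Il2rb had an r of 0.93. Without SE replicate 4, 4 of these 6 genes stayed among the 6 highest, and Prf1 ranked 1 with an r of 0.98.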

How the data were processed

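The authors deposited whole-number counts of barcoded probes from the nCounter mouse PanCancer Immune Profiling Panel for 770 genes in 12 tumors. The methods name nSolver normalization, but these counts are not normalized, since totals and reference genes differ between tumors. No genome build applies to them. No sample column was left unused.

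Of 770 genes 20 are reference genes and 750 were tested. The geNorm procedure kept 15 reference genes for GLA-SE against PBS, 15 for SE against PBS, 12 for GLA-SE against SE and 17 over all tumors. Each tumor was scaled to their geometric mean. Groups were taken from the labels and compared by edgeR 4.0.16 (quasi-likelihood test, R 4.3.3), 8 tumors per fit, with no covariates and no filter on low counts, with Benjamini-Hochberg adjustment across the 750 genes (threshold 0.05). Ratios within a tumor used log2(count + 1) and exact two-sided permutation tests (scipy 1.17.1) over 70 assignments, adjusted per comparison. The scripts were tested on simulated data.

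Precision is limited by 4 tumors per group and, for genes near 20 counts, by the count (total counts 810260 to 1612415).

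The members and the gene lists were chosen with earlier results of these data known. Genes are named by a rule: the 5 members, up to 4 genes per list with the largest change between GLA-SE and PBS among those with a mean of at least 20, genes paired with the members in function, and the 6 genes most like them. Eomes, Runx3, Tbx21 and Xcl1 fall outside it and were picked once their values had been seen. Alternatives were a count filter, all reference genes, panel median, TMM or no rescaling, 1 fit of all tumors, the replicate block, limma 3.58.1, DESeq2 1.42.0, pseudocounts of 0 and 10, and leaving out each tumor. List counts without SE replicate 4 or GLA-SE replicate 3, list medians under 2 scalings and likeness without SE replicate 4 were added after seeing the data. Python 3.11.15 and matplotlib 3.10.9 made the figures.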

Additional observations from a re-analysis of the deposited data

Results flagged for a closer look

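Klrg1 in PBS replicate 1 was at 64.1 normalized counts, while the other 3 PBS tumors lay between 40.2 and 42.4. The gap to the nearest tumor took up most of the range of the group. Of 15 groups of 4 tumors searched (5 genes in 3 groups) it was the only one, and chance gives such a gap in about 5% of groups. PBS replicate 1 was also the highest PBS tumor for the other 4 receptors. Without this tumor the log2 fold change of Klrg1 between GLA-SE and PBS was 1.74 (adjusted p = 0.00330, edgeR), and it ranged from 1.41 to 1.75 over all single tumors left out.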

How the results depend on the processing

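Between GLA-SE and PBS the 5 receptors kept a positive log2 fold change under every alternative. The number called was 0 with the panel median, 0 with TMM, 2 with DESeq2 and its own size factors (Klrg1 and Klrk1), 4 with all 12 tumors in 1 fit (not Ncr1) and 5 otherwise, and 4 to 5 when single tumors were left out. The number without overlap was 0 with the panel median and 0 with TMM. Of all genes 514 were called, 316 with TMM and 253 with all 12 tumors in 1 fit, and 439 to 512 without single tumors. Leaving out a tumor gave 1 to 3 receptors without overlap relative to the CD3 genes (3 without PBS replicate 2), and 2 without GLA-SE replicate 4 or PBS replicate 1.

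Between SE and PBS, where none was called, directions turned with the setting. With the panel median Klrc1, Klrd1, Klrg1 and Klrk1 were at -0.23, -0.31, -0.54 and -0.26, with TMM at -0.24, -0.27, -0.50 and -0.25, with no rescaling at -0.30, -0.31, -0.46 and -0.21, and with DESeq2 and its own size factors at -0.20, -0.24, -0.46 and -0.20. Klrg1 was at -0.037 with all 20 reference genes and -0.011 with limma. Leaving out single tumors gave -0.063 to 0.60 for Klrc1, -0.049 to 0.63 for Klrd1 and -0.36 to 0.33 for Klrg1, with SE replicate 4 giving the lowest of the latter pair. With TMM 1 receptor did not overlap, but the share of all genes without overlap was not counted under TMM. With that scaling only 1 of the 5 receptors had a log2 fold change above 0, and their median was -0.25. Relative to the CD3 genes 0 to 2 receptors did not overlap (2 without SE replicate 4). DESeq2 called 66 genes with reference size factors and 12 with its own.

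Between GLA-SE and SE the number of receptors called was 4 with no rescaling, 4 with DESeq2 and reference size factors, 2 with its own, 2 with all 12 tumors in 1 fit, and 0 to 2 without single tumors (2 without SE replicate 4). Genes called were 0 with the panel median, 3 with TMM, 89 with no rescaling, 70 with all 12 tumors, 140 and 80 with DESeq2, and 2 to 107 without single tumors (107 without SE replicate 4, 2 without GLA-SE replicate 2, and 4 to 10 without GLA-SE replicates 3 or 4 or SE replicates 1, 2 or 3). No receptor was free of overlap with the panel median (0), and relative to the CD3 genes 0 to 1 was.

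With the replicate number as a block, the 5 receptors stayed called between GLA-SE and PBS (log2 fold changes 1.39 to 1.79), Klrg1 was at -0.021 between SE and PBS, and 0 genes were called between GLA-SE and SE. Deviations of tumors with the same number had correlations of -0.25 to 0.18, so the numbers were not taken to pair the tumors. The cause of these shifts was not tested. Counts near 20 limit Ncr1 most.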
